A study of Homo sapiens with 4 samples.

Results

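Proteoglycans are core proteins that carry long sulfated sugar chains, and hyaluronan is a related sugar chain that is made without a core protein. The transcript levels of 42 genes of this system, of 19475 gene symbols measured, were compared between SKOV3 cells on tissue culture plastic (TCP) and SKOV3 spheroids on polymer X (polyX). The genes were chosen by name, 18 for core proteins and for CD44, a receptor of hyaluronan, and 24 for enzymes, and each symbol was represented by its transcript with the highest mean level. SKOV3 is an established human ovarian cancer cell line with an amplified ERBB2 gene. The libraries were 2 of cells on TCP, labelled day 0, and 2 of spheroids grown for 8 days on a plate coated with polymer X, and the labels name no genotype or drug that separated the groups. The substrate and the time in culture changed together, so their parts in any difference cannot be told apart. The same holds for the medium, since the study's methods describe maintenance in fetal bovine serum, whereas the labels give 1 medium with serum replacement for all samples. No label says that the libraries of a group came from separate cultures, so the p-values measure the spread between these libraries, which may be technical.

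A proteoglycan chain starts on a serine of the core protein with a short linker, which begins with xylose. Heparan sulfate is then built by the EXT enzymes and chondroitin sulfate by the chondroitin synthases, and sulfotransferases decide where each chain binds growth factors and matrix proteins. In carcinomas, heparan sulfate proteoglycans of the cell surface and basement membrane bind growth factors, while the small leucine-rich proteoglycans lumican and decorin and the large proteoglycan versican are known mainly as products of the stroma.

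The values were FPKM, that is, tags on the exons of a transcript divided by exon length and by the total tags of the library, and the libraries held 38404000 to 44915000 tags. Replicates correlated across the tested genes at 0.998 for TCP and 0.997 for polyX. Of the ovarian epithelial markers, ERBB2, KRT8, KRT18 and PAX8 were well above 1 FPKM in all 4 libraries, whereas CDH1, WT1 and MUC16 were under 1 FPKM in all 4. EPCAM was at 0.168 and 0.104 FPKM on TCP and at 1.39 and 1.33 FPKM on polyX. All 6 leukocyte markers and all 5 endothelial markers were under 1 FPKM in every library.

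Most of the system stayed within a log2 fold change of 1, while a few core proteins and chain enzymes lay far apart between the groups. Of the 42 genes, 34 reached 1 FPKM in at least 2 libraries and were tested, with limma on log2(FPKM + 1) and Benjamini-Hochberg adjustment over 11964 genes. With both an adjusted p under 0.05 and a log2 fold change past 1 or -1 required, 6 rose on polyX (LUM, DCN, CSPG4, AGRN, CHPF and SULF2) and 3 fell (VCAN, NDST1 and CHST3). That is 17.6% and 8.82% of the 34, beside 10.7% of all tested genes called higher and 9.45% called lower. LUM, DCN, CSPG4 and HS3ST1 reached the minimum level through the polyX libraries alone and so could only be higher there, though HS3ST1 was not called. Without these 4, 3 of 30 rose and 3 of 30 fell, or 10.0% each. At any fold change, 27 of the 34 had an adjusted p under 0.05, 13 with a higher and 14 with a lower level on polyX, beside 81.0% of all genes, 37.4% higher and 43.6% lower.

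**Figure D1:**
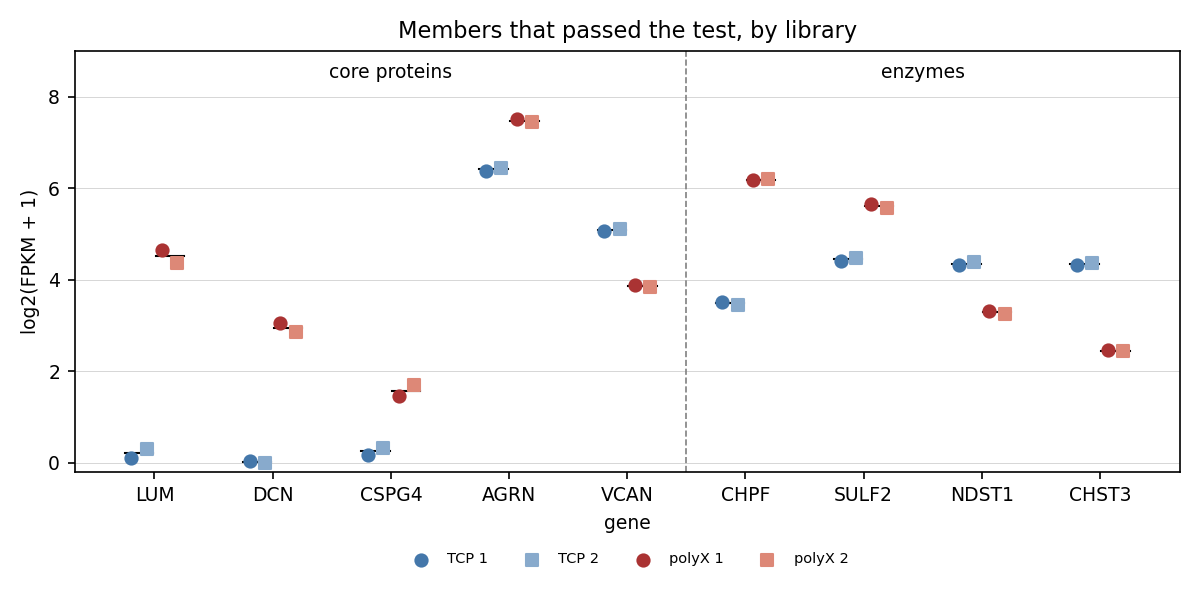
The level of each of the 9 genes that passed the test is plotted as log2(FPKM + 1) for every library, with circles for replicate 1, squares for replicate 2 and a black line at the mean of the 2 libraries of a group. The TCP points (blue) and the polyX points (red) of these genes lie apart, as is bound to be so for genes picked by this test. The LUM, DCN and CSPG4 points on TCP lie near 0.

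Core proteins and enzymes moved in both directions. Among the core proteins, 15 of 18 were tested, 4 rose and 1 fell, with a median log2 fold change of -0.20. Of these 4, LUM, DCN and CSPG4 could only be higher on polyX, as said above. Among the enzymes, 19 of 24 were tested, 2 rose and 2 fell, with a median of 0.09. The median over all tested genes was -0.06. With a mean of at least 5 FPKM required, it was -0.20 over all genes, beside -0.21 for the core proteins and 0.09 for the enzymes. The core proteins' median was thus close to that of all genes at such levels. It was 0.02 after quantile normalization and 0.14 with no minimum level, beside -0.05 and 0 over all genes. The sign of the core proteins' median therefore depended on those choices.

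**Figure D2:**
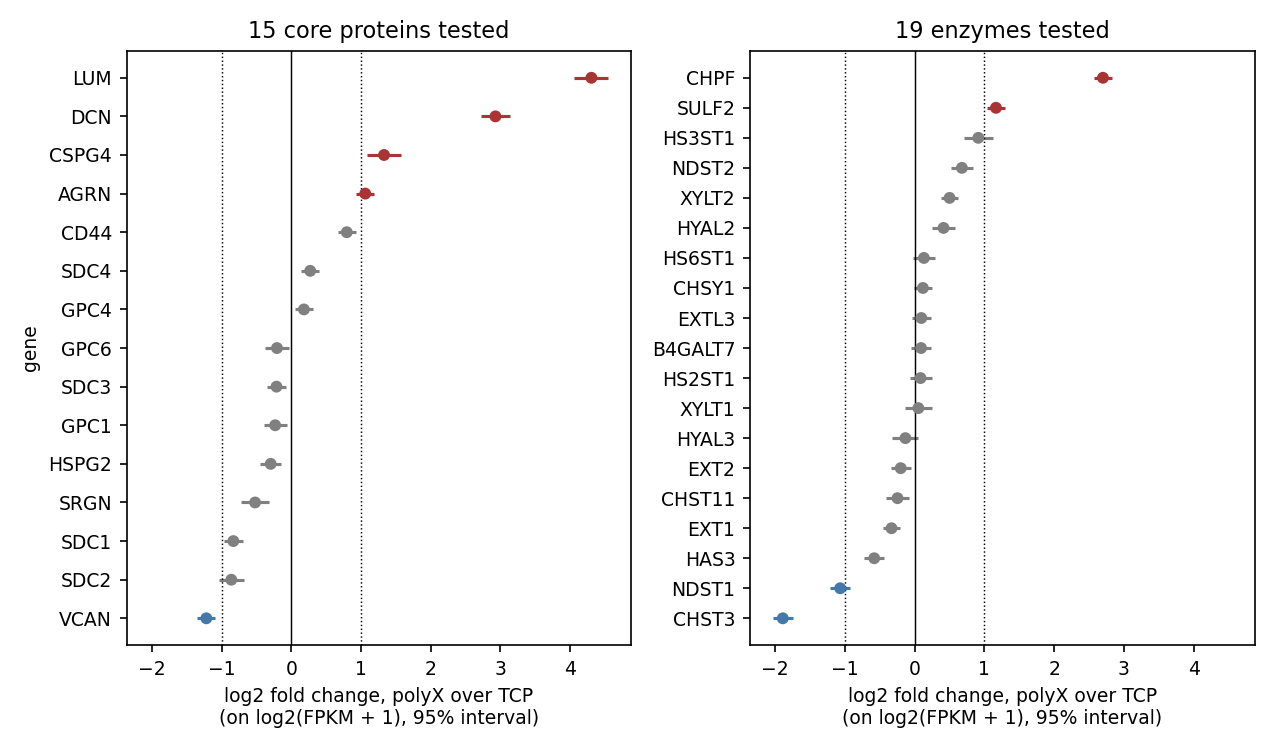
The log2 fold change (polyX over TCP, on log2(FPKM + 1)) of each tested gene is plotted as a point with its 95% interval, for 15 core proteins on the left and 19 enzymes on the right. Dotted lines mark log2 fold changes of 1 and -1, red points are genes called higher, blue points genes called lower and grey points genes not called. LUM and DCN lie at 4.31 and 2.93 among the core proteins, and CHPF at 2.70 among the enzymes.

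The small leucine-rich proteoglycans bind collagen fibrils in connective tissue, and in these cells they were close to absent on TCP. LUM, which codes for the keratan sulfate proteoglycan lumican, was at 0.074 and 0.232 FPKM on TCP and at 24.1 and 19.6 FPKM on polyX. These levels stood for 6 and 22 tags on TCP and for 2038 and 1682 tags on polyX. LUM rose by a log2 fold change of 4.31 (SE 0.11, limma adjusted p = 2.5e-09), and the ratio of its tag rates was 137 (95% counting interval 94.7 to 207). Since LUM reached the minimum level through the polyX libraries alone, it could only be higher there. In bulk libraries such as these, more cells that hold LUM RNA and more LUM RNA per cell cannot be told apart.

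DCN, which codes for decorin, a dermatan or chondroitin sulfate proteoglycan that binds collagen and TGF-beta, was at 0.025 and 0 FPKM on TCP and at 7.26 and 6.20 FPKM on polyX. Only 4 tags were found on TCP, all in replicate 1, beside 1203 and 1044 tags in the polyX libraries. DCN rose by a log2 fold change of 2.93 (SE 0.09, adjusted p = 6.7e-09), and the ratio of its tag rates was 580 (95% counting interval 226 to 2130). DCN too reached the minimum level through the polyX libraries alone and could only be higher there. BGN, which codes for the related biglycan, was at 0 and 0.036 FPKM on TCP and at 1.14 and 0.966 FPKM on polyX. It missed the minimum level for the test, and its tag rates differed by a ratio of 53.4 (95% counting interval 20.6 to 198). Such intervals cover counting error only and are too narrow where 2 tags came from the ends of 1 fragment.

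LUM and DCN lie next to each other on the minus strand of chromosome 12, in a run of 4 small leucine-rich proteoglycan genes that spans 215.94 kb in hg19, from EPYC at chr12:91357456-91398803 through KERA and LUM to DCN at chr12:91537054-91573395. EPYC codes for the cartilage proteoglycan epiphycan and was at 0.017 and 0 FPKM on TCP, that is, 1 tag in all, and at 10.6 and 8.58 FPKM on polyX. It was called higher (adjusted p = 5.1e-09), and its level was at least 202-fold higher on polyX, taken against a floor of 3 tags in each TCP library. EPYC reached the minimum level through the polyX libraries alone, which fixed the direction of its difference but not the call. KERA, which codes for the corneal proteoglycan keratocan and lies between EPYC and LUM, had no tag on TCP and 4 and 6 tags on polyX. LUM and DCN reached the minimum level in the same way, so EPYC, LUM and DCN could only be higher on polyX. Of all tested genes, 10.7% were called higher. KERA was at 0.04 and 0.058 FPKM on polyX and was not tested. Outside the run, the nearest measured gene on the EPYC side, CCER1, was at 0 in all 4 libraries. On the DCN side, the next was BTG1, which starts only at chr12:92534054, farther from DCN than the whole run is long. BTG1, a gene known to restrain cell growth, was at 8.44 and 8.16 FPKM on TCP and 52.8 and 51.3 FPKM on polyX.

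**Figure D3:**
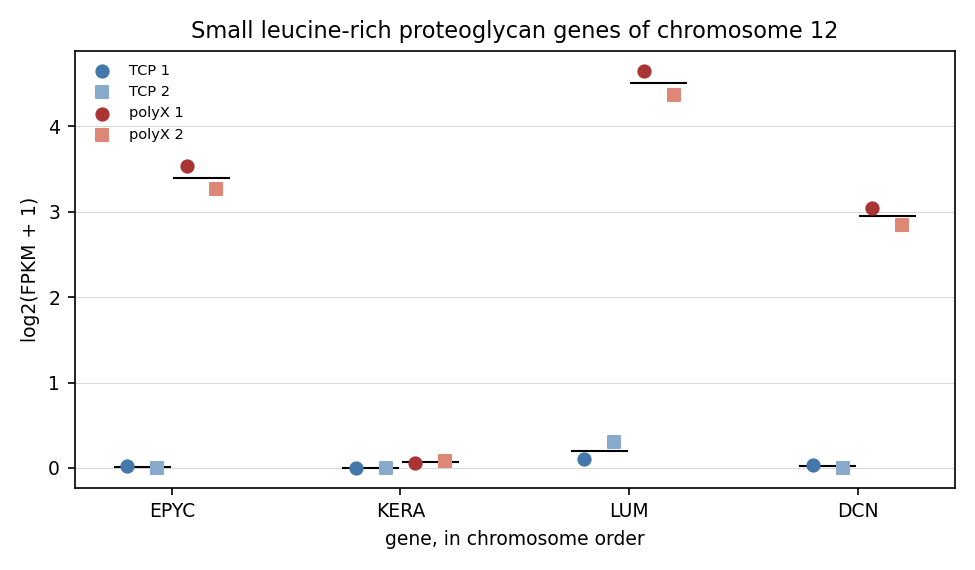
The levels of EPYC, KERA, LUM and DCN, in their order along chromosome 12, are plotted as log2(FPKM + 1) for each library, with a black line at the mean of each group. The polyX points of EPYC, LUM and DCN stand above 2.8, while the points of KERA stay near 0 in all 4 libraries.

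Lumican and decorin are usual products of fibroblasts, so the fibroblast markers are given beside them. Of the 5, PDGFRA, PDGFRB and THY1 were under 1 FPKM in every library. COL1A1 was at 8.21 and 8.48 FPKM on TCP and at 3.81 and 3.77 FPKM on polyX. COL1A2 was at 8.41 and 8.75 FPKM on TCP and at 45.8 and 42.2 FPKM on polyX. The summed level of the list was 17.0 and 17.6 FPKM on TCP and 50.1 and 46.3 FPKM on polyX, almost all of it from these 2 collagen chains. PDGFRA had 26 and 25 tags on TCP and 67 and 78 tags on polyX, PDGFRB had 23 and 21 tags on TCP and 26 and 6 tags on polyX, and THY1 had 11 and 17 tags on TCP and 4 and 0 tags on polyX. The part of other cell types in the LUM and DCN levels was not tested.

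Versican, from VCAN, binds hyaluronan through its head and carries its chondroitin sulfate chains on a middle part coded by the alpha and beta exons. VCAN was at 32.4 and 33.7 FPKM on TCP and at 13.8 and 13.4 FPKM on polyX, a 2.42-fold lower level. It fell by 1.22 on the log2 scale (SE 0.06, adjusted p = 7.5e-08). The large exons for the chondroitin sulfate region decide the size of each versican form, and the start of each is shown for that reason. The alpha exon holds 2961 bases at chr5:83519349-83522309 (GRCh38, plus strand, GENCODE 29) and the beta exon 5262 bases at chr5:83537007-83542268, and the first 60 bases of each read as follows, in lower case throughout.
VCAN alpha exon: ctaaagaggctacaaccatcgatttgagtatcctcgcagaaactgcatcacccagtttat
VCAN beta exon: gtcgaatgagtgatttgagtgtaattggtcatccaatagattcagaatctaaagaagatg

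The level of each exon was taken from the tags that a longer VCAN transcript held over a shorter one, and it was looked at after the gene's values were known, with no test. The alpha exon was at 10.4 and 11.03 FPKM on TCP and at 2.74 and 2.399 FPKM on polyX, 4.16-fold lower. The beta exon was at 33.5 and 35.8 FPKM on TCP and at 12.9 and 12.6 FPKM on polyX, 2.72-fold lower. The exons shared by all forms were at 30.9 FPKM in both TCP libraries and at 15.0 and 14.4 FPKM on polyX, 2.10-fold lower. Relative to the shared exons, the alpha exon stood at 33.6% and 35.7% on TCP and at 18.3% and 16.6% on polyX. For the beta exon these shares were 108% and 116% on TCP and 85.8% and 87.1% on polyX. They are ratios of tags per base and, as the beta exon on TCP shows, not the fraction of transcripts that hold an exon. By this ratio both chain-carrying exons were lower relative to the shared exons in both polyX libraries, and splicing was not tested. An antisense transcript, VCAN-AS1, shares 453 bases with the exons of the VCAN transcript used, and its tags could not be set apart because the counting did not use strand.

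CD44 is the main cell surface receptor for hyaluronan, and forms that include its variant exons can carry heparan sulfate. The standard form skips 9 variant exons (1143 bases in GENCODE 29), and its own exons are shared with the longest variant form, so its value counts tags of both. It was at 71.6 and 75.5 FPKM on TCP and at 129 and 128 FPKM on polyX. The log2 fold change was 0.80 (SE 0.06, adjusted p = 1.0e-06), under the minimum of 1, although it reached 1.13 after quantile normalization. The junction of the standard form is shown because it tells that form from the variant forms, although tags across it were not counted. It joins an exon that ends at base 35190065 of chromosome 11 to one that starts at base 35214852 (GRCh38, plus strand), with the second exon in capitals.
CD44 standard junction: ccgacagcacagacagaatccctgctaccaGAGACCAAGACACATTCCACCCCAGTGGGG

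The variant exons were at 3.17 and 3.32 FPKM on TCP and at 1.63 and 1.47 FPKM on polyX, from 138 and 169 tags and from 74 and 68 tags. Relative to the standard-form exons they stood at 4.42% and 4.39% on TCP and at 1.27% and 1.15% on polyX. The level of the standard-form exons was thus higher in both polyX libraries and that of the variant exons lower, with no overlap for either. These values too were looked at after the fact and have no test.

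**Figure D4:**
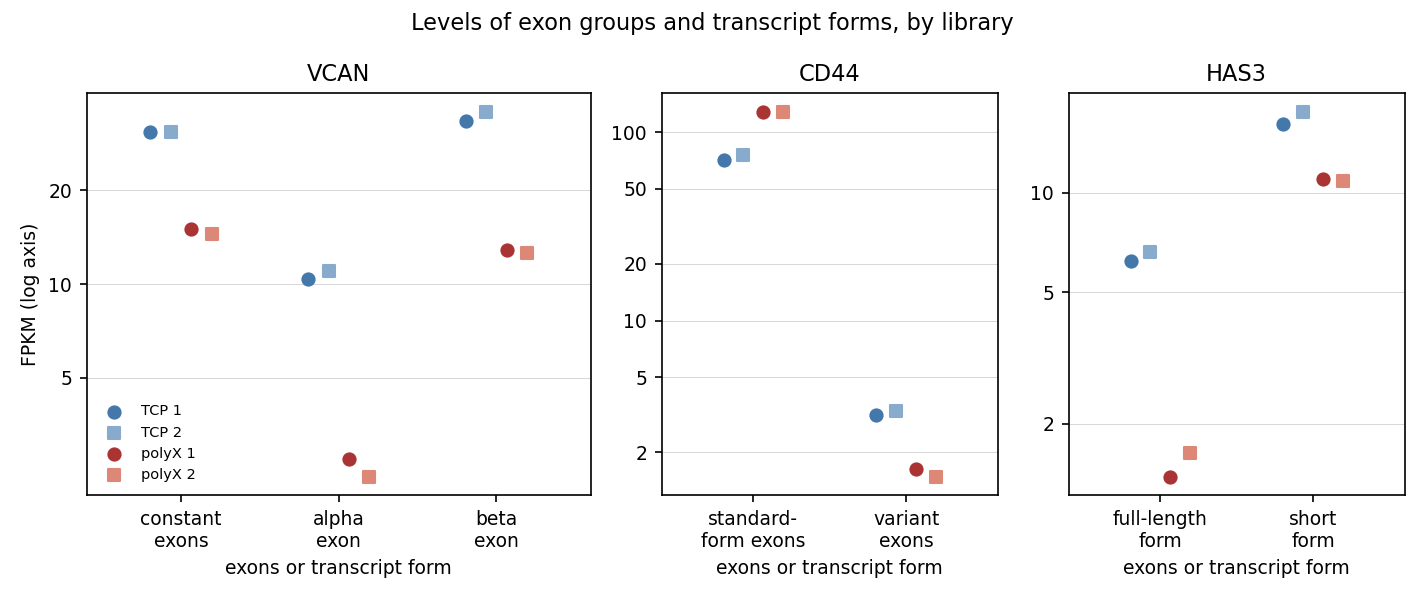
The FPKM of exon groups of VCAN and CD44 and of transcript forms of HAS3 is plotted on a log axis for each library, with TCP in blue and polyX in red, circles for replicate 1 and squares for replicate 2. The alpha exon of VCAN and the full-length form of HAS3 show wider gaps between the groups than the shared VCAN exons and the short HAS3 form, and the CD44 groups lie in opposite orders for the standard-form exons and the variant exons.

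The basement membrane heparan sulfate proteoglycans differed from each other. AGRN, which codes for agrin, was at 82.3 and 86.3 FPKM on TCP and at 180 and 174 FPKM on polyX, 2.10-fold higher. It rose by a log2 fold change of 1.06 (SE 0.06, adjusted p = 1.8e-07), just past the minimum, and its 95% interval was 0.93 to 1.19. HSPG2, which codes for perlecan, was at 13.1 and 14.4 FPKM on TCP and at 11.2 and 10.7 FPKM on polyX, with a log2 fold change of -0.29 (SE 0.07, adjusted p = 0.0027). In GENCODE 29, 11.6% of the perlecan exon bases are shared with LDLRAD2 on the opposite strand, at 7.64 and 7.76 FPKM on TCP and 11.3 FPKM in both polyX libraries.

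The syndecans, which span the cell membrane and carry heparan sulfate, had no member past the minimum fold change. SDC1 was at 66.1 and 67.3 FPKM on TCP and at 38.6 and 35.6 FPKM on polyX, a log2 fold change of -0.83 (SE 0.06, adjusted p = 1.1e-06). SDC2 was at 26.3 and 26.6 FPKM on TCP and at 15.5 and 12.9 FPKM on polyX, a log2 fold change of -0.86 (SE 0.08, adjusted p = 7.5e-06). SDC4 was at 93.0 and 96.4 FPKM on TCP and at 113 and 116 FPKM on polyX, a log2 fold change of 0.27. SDC1 and SDC2 were therefore lower and SDC4 higher in both polyX libraries, with small folds. SDC3 had a log2 fold change of -0.21, which turned to 0.02 under quantile normalization.

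The makeup of the family differed more than its total. The 4 syndecans summed to 210 and 215 FPKM on TCP and to 189 and 185 FPKM on polyX. SDC4 made up 44.3% and 44.8% of that sum on TCP and 59.7% and 62.7% on polyX. SDC1 made up 31.5% and 31.3% on TCP and 20.4% and 19.2% on polyX.

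The glypicans, which are tied to the membrane by a lipid anchor, were closer between the groups. GPC1, GPC4 and GPC6 had log2 fold changes of -0.23, 0.18 and -0.20, none past the minimum. GPC1 made up 66.6% and 66.2% of the glypican sum on TCP and 61.9% and 57.8% on polyX, and GPC4 made up 25.3% and 25.2% on TCP and 29.1% and 32.5% on polyX. GPC2 and GPC3 were under 1 FPKM in every library and were not tested. GPC2 was at 0.212 and 0.268 FPKM on TCP and at 0.852 and 0.982 FPKM on polyX.

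**Figure D5:**
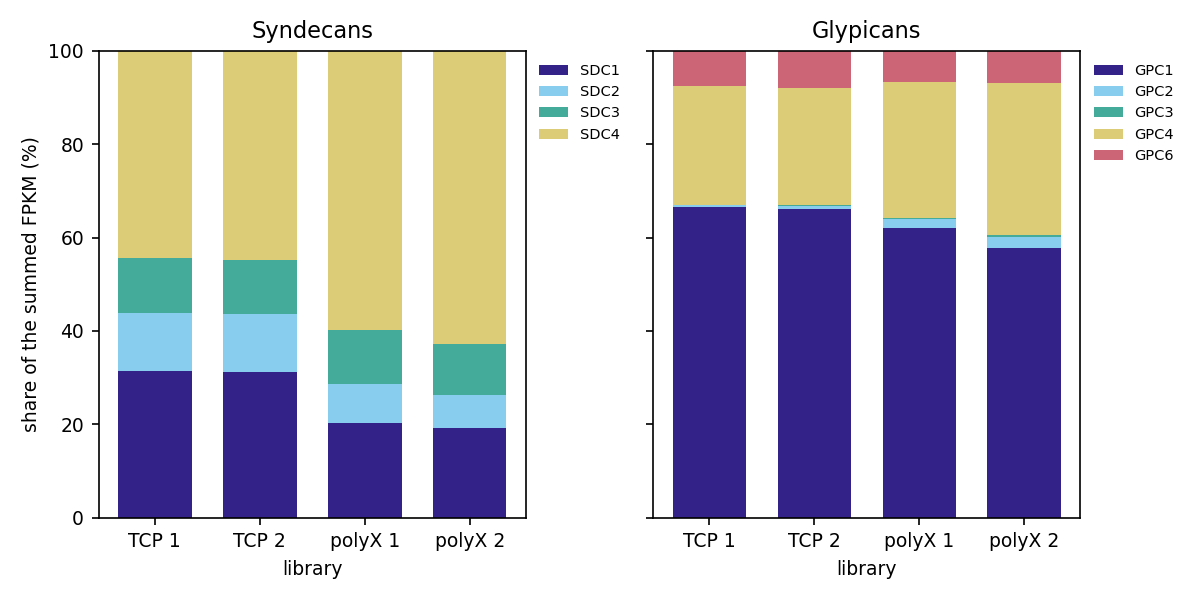
The share of each gene in the summed FPKM of its family is stacked to 100% for each library, for the 4 syndecans on the left and the 5 glypicans on the right. SDC4 takes 59.7% and 62.7% of the syndecan sum in the polyX libraries beside 44.3% and 44.8% on TCP, and the glypican bars differ less.

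The remaining core proteins were low. CSPG4 codes for NG2, a transmembrane chondroitin sulfate proteoglycan known from pericytes and glial precursors. It was at 0.129 and 0.245 FPKM on TCP and at 1.74 and 2.24 FPKM on polyX, from 41 and 91 tags and from 578 and 755 tags. It rose by a log2 fold change of 1.33 (SE 0.10, adjusted p = 2.2e-06), but by 0.85 after quantile normalization, where it was no longer called. CSPG4 reached the minimum level through the polyX libraries alone, so the direction of its difference was fixed in advance. SRGN codes for serglycin, the proteoglycan of secretory granules in blood cells, and was at 1.31 and 1.45 FPKM on TCP and at 0.580 and 0.741 FPKM on polyX (log2 fold change -0.52). Beside these low levels, the 6 leukocyte markers summed to 0.224 and 0.122 FPKM on TCP and to 0.946 and 1.05 FPKM on polyX, with PTPRC at 0.468 and 0.530 FPKM on polyX and CD3E at 0 in all 4 libraries. The 5 endothelial markers summed to 0.509 and 0.478 FPKM on TCP and to 0.855 and 0.628 FPKM on polyX, with PECAM1 at 0 on TCP and at 0.573 and 0.458 FPKM on polyX, and the part of such cells in the CSPG4 and SRGN levels was not tested.

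Hyaluronan is made at the cell membrane by 3 synthases. HAS1 was at or under 3 tags in every library. HAS2, with 56 and 65 tags on TCP and 12 and 20 tags on polyX, was under 0.5 FPKM throughout and was not tested. HAS3 was thus the main synthase by transcript level, with 97.1% to 99.2% of the summed FPKM of the family. These shares use a short HAS3 form with 31.4% of its exon bases shared with another gene, CHTF8, so they may be too high. The full-length HAS3 form, at 6.21 and 6.64 FPKM on TCP and 1.38 and 1.63 FPKM on polyX, was also above HAS2 in every library.

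The value of HAS3 depended on the transcript taken. By the rule used here it was a short form of 1185 bases, at 16.1 and 17.5 FPKM on TCP and at 10.98 and 10.9 FPKM on polyX, with a log2 fold change of -0.58 (SE 0.06, adjusted p = 2.2e-05). In GENCODE 29, 31.4% of the exon bases of this form are shared with CHTF8 on the opposite strand, which was at 33.0 and 34.4 FPKM on TCP and 26.6 and 25.2 FPKM on polyX. The full-length form of 4213 bases shares none. It was at 6.21 and 6.64 FPKM on TCP and at 1.38 and 1.63 FPKM on polyX, 4.26-fold lower and without overlap. When each symbol was represented by its longest transcript, a choice made after seeing these values, the log2 fold change of HAS3 was -1.56 (SE 0.08, adjusted p = 2.2e-07), past the minimum.

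The hyaluronidases cleave hyaluronan, and none of them passed the test. HYAL2, the form anchored at the cell surface, had a log2 fold change of 0.41 and HYAL3 of -0.13. In GENCODE 29, 24.8% of the exon bases of HYAL2 are shared with TUSC2, at 11.1 and 11.6 FPKM on TCP and 7.63 and 7.72 FPKM on polyX. HYAL1, the lysosomal form, was not tested at 0.153 and 0.105 FPKM on TCP and 0.882 and 0.825 FPKM on polyX.

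The enzymes for the linker and for the heparan sulfate backbone were close between the groups. Those for the linker were XYLT1, XYLT2 and B4GALT7, with log2 fold changes of 0.05, 0.50 and 0.09. XYLT2, at 21.7 and 22.2 FPKM on TCP and 31.5 FPKM in both polyX libraries, was the more abundant xylosyltransferase, since XYLT1 lay between 1.32 and 1.52 FPKM. EXT1 and EXT2, which together form the heparan sulfate polymerase, had log2 fold changes of -0.33 and -0.20, and EXTL3, which adds the first residue of the chain, of 0.10. None of these 6 passed the minimum fold change. An adjusted p under 0.05 was found for 3 of them (XYLT2, EXT1 and EXT2), beside 81.0% of all tested genes.

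Among the enzymes that modify heparan sulfate, NDST1 and SULF2 passed the test. NDST1 performs the first sulfation step, on nitrogen, which later sulfation steps need. It was at 18.8 and 19.98 FPKM on TCP and at 8.99 and 8.48 FPKM on polyX, 2.22-fold lower. NDST1 fell by 1.07 on the log2 scale (SE 0.06, adjusted p = 3.5e-07), and its change of -0.96 after quantile normalization was no longer past the minimum. NDST2 was at 3.89 and 3.68 FPKM on TCP and at 6.78 and 6.52 FPKM on polyX, a log2 fold change of 0.68 (SE 0.07, adjusted p = 1.4e-05). Since 99.01% of its exon bases lie in a transcript that reads through from a neighbouring gene, NDST2 could not be counted apart from it.

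SULF2 removes 6-O-sulfate from heparan sulfate outside the cell. It was at 20.4 and 21.2 FPKM on TCP and at 49.3 and 46.5 FPKM on polyX, 2.30-fold higher, and it rose by a log2 fold change of 1.17 (SE 0.06, adjusted p = 1.1e-07). Its close relative SULF1 had 2 tags in 1 polyX library and none in the other 3. The 2-O-sulfotransferase HS2ST1 and the 6-O-sulfotransferase HS6ST1 had log2 fold changes of 0.08 and 0.13, with adjusted p of 0.28 and 0.12. The 3-O-sulfotransferase HS3ST1, known for making the antithrombin binding site of heparan sulfate, was at 0.677 and 0.749 FPKM on TCP and at 2.46 and 2.01 FPKM on polyX. Its log2 fold change was 0.91 (SE 0.09, adjusted p = 1.3e-05), and 1.52 with a pseudocount of 0.1, where it was called. HS3ST1 reached the minimum level through the polyX libraries alone, so the direction was fixed in advance. HS6ST2 stayed between 0.140 and 0.191 FPKM and was not tested.

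The chondroitin sulfate enzymes held the enzymes with the largest changes in each direction of the 19 tested. CHPF codes for chondroitin polymerizing factor, the partner that the chondroitin synthases need to build long chains. It was at 10.4 and 9.97 FPKM on TCP and at 71.7 and 72.0 FPKM on polyX, 7.04-fold higher, with replicates close to each other. CHPF rose by a log2 fold change of 2.70 (SE 0.06, adjusted p = 9.7e-10). The synthase CHSY1, with which it works, was at 21.0 and 21.6 FPKM on TCP and at 23.4 and 23.0 FPKM on polyX (log2 fold change 0.12, adjusted p = 0.073).

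CHST3, which places sulfate on position 6 of chondroitin, went the other way. It was at 18.8 and 19.5 FPKM on TCP and at 4.49 and 4.40 FPKM on polyX, 4.32-fold lower. CHST3 fell by 1.89 on the log2 scale (SE 0.06, adjusted p = 9.0e-09). CHST11, which places sulfate on position 4, was at 10.1 and 11.4 FPKM on TCP and at 8.60 and 9.14 FPKM on polyX (log2 fold change -0.25, adjusted p = 0.012).

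The promoters of CHPF, CHST3 and NDST1 are shown because these enzymes include the largest changes in each direction. Each run is the 250 bases before the start site from RefSeq on GRCh38.p14, at chr2:219543810-219544059 (minus strand) for CHPF, chr10:71964145-71964394 (plus strand) for CHST3 and chr5:150497529-150497778 (plus strand) for NDST1. Capitals mark matches on either strand to the letters searched, namely the STAT motif TTCNNNGAA, the TATA box as TATAAA, the AP-1 motif TGANTCA, the hypoxia element core ACGTG, the GC box as GGGCGG and the cAMP response element TGACGTCA, which was added after the CHPF sequence was seen.
CHPF promoter: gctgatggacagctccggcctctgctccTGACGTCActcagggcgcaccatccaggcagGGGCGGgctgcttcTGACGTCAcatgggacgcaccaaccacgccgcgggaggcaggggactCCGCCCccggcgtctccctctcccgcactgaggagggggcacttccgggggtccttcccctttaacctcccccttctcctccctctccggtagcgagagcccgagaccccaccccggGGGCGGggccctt
CHST3 promoter: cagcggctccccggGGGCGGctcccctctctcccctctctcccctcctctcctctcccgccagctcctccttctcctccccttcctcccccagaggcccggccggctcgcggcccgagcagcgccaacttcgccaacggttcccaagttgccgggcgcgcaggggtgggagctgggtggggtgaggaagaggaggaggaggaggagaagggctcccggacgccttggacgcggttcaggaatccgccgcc
NDST1 promoter: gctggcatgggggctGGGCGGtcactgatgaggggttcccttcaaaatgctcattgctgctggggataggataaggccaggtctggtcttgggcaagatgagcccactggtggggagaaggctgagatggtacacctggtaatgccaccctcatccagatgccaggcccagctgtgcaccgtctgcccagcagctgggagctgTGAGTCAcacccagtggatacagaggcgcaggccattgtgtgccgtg

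The CHPF window holds TGACGTCA at 177 and 222 bases before the start, and 3 GC boxes. Of 27303 promoters of the same length, 1.77% hold TGACGTCA and 42.3% hold GGGCGG. The CHST3 window holds 1 GC box, and the NDST1 window holds 1 GC box and TGAGTCA at 47 bases before the start, where 6.60% of all promoters hold the AP-1 letters. The STAT letters, found in 6.78% of all promoters, were in none of the 6 windows that could be matched among the 9 genes called (CHPF, CHST3, CSPG4, NDST1, SULF2 and VCAN). A match describes the letters of a window and not a bound site, and a missing match says only that these letters are not in it. The start sites were not matched to the transcripts counted, so a window, that of NDST1 included, may lie away from the start of the counted form.

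The same pathway holds other core proteins, precursor enzymes and lysosomal enzymes, of which 94 were listed and 52 reached the minimum level and were tested, 3 of them through the polyX libraries alone. Of these, 9 rose and 3 fell, or 17.3% and 5.77%, beside 10.7% and 9.45% of all tested genes. Without EPYC, IDUA and CHAD, the genes that reached it that way, 7 of 49 rose and 3 of 49 fell, or 14.3% and 6.12%. The 5 with the largest rise were EPYC, IDUA, HEXA, HAPLN3 and CHST2. HAPLN3, a link protein that ties proteoglycans to hyaluronan, was at 1.07 and 1.22 FPKM on TCP and at 4.96 and 5.51 FPKM on polyX (log2 fold change 1.54, SE 0.08, adjusted p = 1.8e-07). CHST2, which sulfates N-acetylglucosamine, was at 8.51 and 8.20 FPKM on TCP and at 22.3 and 21.9 FPKM on polyX (log2 fold change 1.30, SE 0.06, adjusted p = 6.1e-08).

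The 3 that fell were HMMR, HS3ST3A1 and PAPSS2. HMMR codes for a hyaluronan binding protein of the mitotic spindle and was at 12.2 and 10.9 FPKM on TCP and at 2.07 and 2.45 FPKM on polyX (log2 fold change -1.94, SE 0.09, adjusted p = 5.0e-08). HS3ST3A1, another 3-O-sulfotransferase, was at 17.3 and 17.1 FPKM on TCP and at 7.47 and 6.48 FPKM on polyX (log2 fold change -1.19). PAPSS2, which makes the sulfate donor used by all sulfotransferases, was at 13.6 and 14.1 FPKM on TCP and at 6.37 and 6.34 FPKM on polyX (log2 fold change -1.01). PAPSS1, which makes the same donor and is named after its values were seen, was more abundant and was not called. It was at 25.6 and 24.9 FPKM on TCP and at 23.7 and 22.1 FPKM on polyX (log2 fold change -0.14, adjusted p = 0.06). PAPSS2 was near the minimum and was not called after median scaling (-0.97), after quantile normalization (-0.95) or without TCP replicate 2 (-0.99).

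Enzymes that break the chains down, most of them in the lysosome but with cell surface and secreted hyaluronidases and heparanases among them, had 14 of 18 genes tested. Of these 4 rose and 0 fell, or 28.6% and 0%, beside 10.7% and 9.45% of all tested genes, and 3 of 13 rose without IDUA. IDUA, which removes iduronic acid, was at 0.782 and 0.851 FPKM on TCP and at 5.98 and 6.69 FPKM on polyX (log2 fold change 2.01, SE 0.08, adjusted p = 3.1e-08), and it reached the minimum level through the polyX libraries alone. HEXA, a subunit of beta-hexosaminidase, was at 10.6 and 10.4 FPKM on TCP and at 33.97 and 34.4 FPKM on polyX (log2 fold change 1.61, SE 0.06, adjusted p = 1.2e-08). SGSH and HGSNAT, which act on heparan sulfate and are named after their values were seen, had log2 fold changes of 1.26 and 1.02, and HGSNAT was not called without polyX replicate 1 (0.98). The other 10 tested were not called, at log2 fold changes from -0.47 to 0.86. At any fold change, 12 of the 14 had an adjusted p under 0.05, 9 with a higher and 3 with a lower level on polyX. Of all tested genes, 81.0% had such a p, 37.4% higher and 43.6% lower.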

How the data were processed

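RNA-seq libraries of SKOV3 cells, 2 on TCP and 2 on polyX, were grouped by their labels. The authors deposited FPKM values per RefSeq transcript, made with HOMER on hg19 from tags on exons of both strands and rounded to 3 decimals. The submitters' processing notes also name STAR 2.4.0 and DESeq, with no role. The labels name a directional library kit and, in another sentence, a kit without that word, and the counting did not use strand. The tag directories of other cultures named in the file header were not analysed here. Values times transcript length fell on whole multiples of 1 step per library, within 0.1 of a whole number for 100% of the low values used, which gave the tags per library (38404000 to 44915000). A group with at most 3 tags in each library was treated as at the floor.

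A symbol with several transcripts was represented by the one whose mean FPKM was highest. The 11964 genes that reached 1 FPKM in 2 or more libraries entered a limma 3.58.1 fit in R 4.3.3 on log2(FPKM + 1), with the variance allowed to follow the mean and Benjamini-Hochberg adjustment. The added 1 makes changes of low genes look smaller on this scale. Exact permutation of 2 against 2 libraries cannot go below p = 0.333 and was not used. Exon overlaps came from GENCODE 29 (GRCh38) and promoters from RefSeq (GRCh38.p14), where 32 of the 42 symbols matched.

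The genes and lists were chosen with earlier results of these data known. Every member was named, with library values for those called, and of the other pathway genes the 5 called with the largest change in each direction. Exon levels of VCAN and CD44 and the full-length HAS3 form were chosen after their values were seen. The alternatives were a pseudocount of 0.1, no minimum level or a mean of at least 5 FPKM, median scaling, quantile normalization, a replicate block, the sum of transcripts, no trend, no minimum fold change, each library left out in turn and, added after seeing the data, the longest transcript. Deviations from the group mean correlated at 0.0927 between TCP replicate 1 and polyX replicate 1, over 11964 genes. With 2 libraries per group, replicate 2 must give the same value. The replicate numbers were not taken to pair the libraries.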

Additional observations from a re-analysis of the deposited data

How the results depend on the processing

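Of 435 values for the 34 tested genes under 13 alternatives, 423 kept both their direction and their side of the threshold. After quantile normalization the log2 fold change was 0.017 for SDC3, 0.028 for EXT2 and -0.34 for XYLT1, each of the opposite sign, and CSPG4 (0.85) and NDST1 (-0.96) were no longer called while CD44 (1.13) was. XYLT1 ranged from -0.0046 (without polyX replicate 1) to 0.11 with a library left out, and HS2ST1 at -0.15 with transcripts summed. HAS3 was called with transcripts summed (-1.03) and with the longest transcript (-1.56), and HS3ST1 with a pseudocount of 0.1 (1.52) and without polyX replicate 2 (1.01). The causes were not tested. With no minimum fold change, 13 members and 26 other pathway genes were called higher and 14 of each lower, beside 37.4% and 43.6% of all tested genes. With a mean of at least 5 FPKM, where fewer genes are tested, 5 other pathway genes were called higher, beside 702 of all 8166 genes tested there. The core proteins' median was 0.14 with no minimum level and 0.017 after quantile normalization, beside 0 and -0.05 over all genes. With a library left out, the core proteins' median was -0.23 to -0.12. The enzymes' median was 0.13 after median scaling and 0.056 to 0.12 with a library left out. Among the other pathway genes, BCAN was not called after quantile normalization (0.87). The fit with the replicate number as a replicate block called 6 members higher and 3 lower, as without it. With 2 libraries per group, the spread rests on few values, and levels near 3 tags carry wide counting error.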
